A study of Homo sapiens with 12 samples.

Results

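The MAGEB and MAGEC genes were followed across 12 arrays of L1236 and L428, established cell lines of classical Hodgkin lymphoma, a B-cell tumour that has lost most of its B-cell programme. The members are the 8 genes MAGEB1, MAGEB2, MAGEB3, MAGEB4, MAGEB6, MAGEC1, MAGEC2 and MAGEC3, taken by their symbols in the annotation of the array, out of 19775 genes with a probe set of their own. They have 10 probe sets among the 54613 on the array that are not controls, with a pair each for MAGEB4 and MAGEC2. The groups, with 3 arrays each, are L1236 cells given 1 µM 5-Aza-dC for 24 h and then kept for 72 h in medium without it, untreated L1236 cells, L428 cells given the same treatment, and untreated L428 cells. All cells grew in the same medium with serum and antibiotics, and no vehicle is named for the untreated cells. The labels describe the experiment as done in triplicate without saying what a replicate is, and the p-values therefore cover the spread among these arrays, which may be technical.

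The MAGE genes of type I, to which the MAGEA, MAGEB and MAGEC families belong, lie on the X chromosome. Their normal expression is largely restricted to germ cells of the testis, and tumours of many kinds express them again, which is why they are called cancer-testis antigens. Peptides from them can be presented to T cells. The proteins share a MAGE homology domain through which several bind RING ubiquitin ligases, and the best known pair of these families is MAGEC2 with TRIM28. Silence of many of these genes in other tissues goes with methylated CpG dinucleotides at their promoters. The drug, also named decitabine, replaces cytosine in newly made DNA and binds the methyltransferases there, which leaves daughter strands without their methyl marks.

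The promoters are shown first because the CpG dinucleotides in them are the sites that can be methylated. RefSeq on GRCh38.p14 gives windows of 300 bases, with 250 before and 50 after an annotated start, for all 8 genes, and MAGEB1 has 2 such starts. All lie on the X chromosome, and all but that of MAGEC2 are on the plus strand. The windows below, read 5′ to 3′, are those of the genes with the highest signals (MAGEB2 and the downstream start of MAGEB1), of both MAGEC genes whose signals changed, and of MAGEB3, which changed with few CpGs. Capitals mark CpG dinucleotides.
MAGEB2, chrX:30215313-30215612, plus strand: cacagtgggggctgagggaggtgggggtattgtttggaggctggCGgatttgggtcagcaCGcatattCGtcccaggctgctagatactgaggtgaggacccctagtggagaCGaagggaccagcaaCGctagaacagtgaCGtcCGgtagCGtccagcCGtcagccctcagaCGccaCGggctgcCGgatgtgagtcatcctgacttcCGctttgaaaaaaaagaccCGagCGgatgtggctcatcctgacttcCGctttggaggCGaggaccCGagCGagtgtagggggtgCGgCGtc
MAGEB1, chrX:30246896-30247195, plus strand: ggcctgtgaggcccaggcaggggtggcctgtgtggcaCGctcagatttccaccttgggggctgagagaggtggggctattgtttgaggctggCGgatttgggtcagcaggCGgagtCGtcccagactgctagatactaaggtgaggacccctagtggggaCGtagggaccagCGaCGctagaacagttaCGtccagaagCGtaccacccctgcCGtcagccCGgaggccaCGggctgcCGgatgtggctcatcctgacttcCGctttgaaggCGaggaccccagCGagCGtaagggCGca
MAGEC1, chrX:141903644-141903943, plus strand: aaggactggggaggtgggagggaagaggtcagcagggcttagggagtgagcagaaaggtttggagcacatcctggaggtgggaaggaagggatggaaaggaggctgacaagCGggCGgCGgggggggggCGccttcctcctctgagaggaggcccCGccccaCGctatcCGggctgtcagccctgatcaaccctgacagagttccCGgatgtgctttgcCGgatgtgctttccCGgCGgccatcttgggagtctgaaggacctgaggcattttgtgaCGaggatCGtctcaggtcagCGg
MAGEC2, chrX:142205241-142205540, minus strand: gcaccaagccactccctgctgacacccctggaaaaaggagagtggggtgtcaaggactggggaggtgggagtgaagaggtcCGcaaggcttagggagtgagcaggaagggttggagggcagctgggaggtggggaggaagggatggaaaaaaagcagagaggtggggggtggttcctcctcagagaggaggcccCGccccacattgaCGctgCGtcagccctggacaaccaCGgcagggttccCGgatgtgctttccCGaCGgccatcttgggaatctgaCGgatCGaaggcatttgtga
MAGEB3, chrX:30230407-30230706, plus strand: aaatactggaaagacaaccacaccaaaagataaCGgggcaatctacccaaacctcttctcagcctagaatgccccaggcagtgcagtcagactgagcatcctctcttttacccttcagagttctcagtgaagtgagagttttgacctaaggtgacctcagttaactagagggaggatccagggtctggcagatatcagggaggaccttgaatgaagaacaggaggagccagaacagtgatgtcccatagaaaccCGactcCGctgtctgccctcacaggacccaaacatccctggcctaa

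The windows differed widely in CpG content. MAGEB2 held 21 CpGs, the downstream start of MAGEB1 18, MAGEC1 14, MAGEB6 11 and MAGEC2 10. MAGEC3 held 5, MAGEB3 3, MAGEB4 2 and the upstream start of MAGEB1 1. Over 35116 annotated windows of the same length the median was 14, with quartiles of 4 and 28, so the members covered the range from sparse to moderate. The window of MAGEC3 belongs to 1 annotated start inside a longer gene model.

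**Figure D1:**
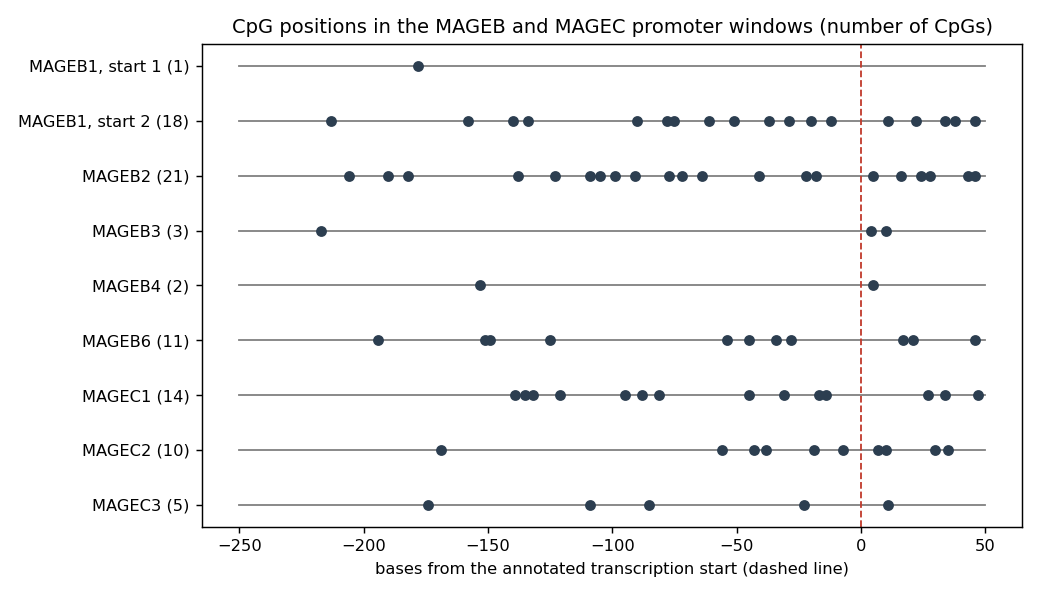
Positions of CpG dinucleotides (points) in the 300-base promoter windows of the 8 genes, in bases from the annotated transcription start, with the number of CpGs in brackets after each name. MAGEB2, the downstream start of MAGEB1 and MAGEC1 carry 21, 18 and 14 CpGs, while MAGEB3 and MAGEB4 carry 3 and 2.

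Factors of the ETS family bind cores of the form GGAA or GGAT and are known activators of MAGEA promoters. Searched on both strands, CCGGAA occurred in 1 of the 9 member windows, that of MAGEB6, against 17.2% of all windows. CCGGAT occurred in 4 of the 9, against 7.12% of all windows. The longer run CCGGATGTG, which contains CCGGAT and was picked after the member windows had been read, occurred in the same 4, those of MAGEB2, the downstream start of MAGEB1, MAGEC1 and MAGEC2. It was present in 119 of all 35116 windows (0.339%), and in 13 of 16 windows of MAGEA genes, some of which overlap each other. Counted in bases from the start, it began at -46 and -32 in MAGEC1, -65 in MAGEB2, -13 in MAGEB1 and -8 in MAGEC2. The windows of MAGEB1 and MAGEB2 also shared an exact run of 30 bases with 2 CpGs, CGgatgtggctcatcctgacttcCGctttg. The windows of MAGEC1 and MAGEC2 shared an exact run of 20 bases without a CpG. With such shared runs, the 4 windows with CCGGATGTG cannot be counted as independent matches. All these matches describe letters in the windows and not bound sites.

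Signals are log2 values made by robust multichip averaging (RMA), in which background is removed, arrays are put on a common distribution and the probes of a probe set are summarised. The median array signal was 3.01 to 3.08, so signals of 2 to 3 lie at the low end of the scale. No detection calls were used here, and the size of a change that starts at the low end depends on where that end was placed. A higher signal can come from more cells with the transcript or from more transcript per cell, and these cannot be told apart. Changes are differences of group means on the log2 scale with the standard error from limma, fitted to all probe sets together. A probe set was called when its Benjamini-Hochberg adjusted p, over all 54613 probe sets, was under 0.05.

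Several arrays need to be named before the results. The source name of untreated L1236 replicate 1 speaks of treated L428 cells, against its description, which was followed, and its signals correlated best with those of an untreated L1236 array. The source name of treated L428 replicate 1 gives the agent as Aza. That array correlated best with an untreated L428 array, at 0.987, and had the widest deviations from its group of all 12 arrays. Markers of the tumour cells were high: TNFRSF8, which encodes CD30, averaged 9.57 to 10.39 over the groups and BATF3 13.76 to 14.51, although TRAF1 was at 2.07 and 2.10 in treated and untreated L1236. The markers CD3E of T cells (1.74 to 1.76) and CD14 of monocytes (2.26 to 2.28) were at the low end in every group. So were CD3G, KLRD1, LYZ and MPO, at 2.12 to 2.80. Others of their lists were not, with CD3D at 4.13 to 6.56, CD4 at 4.13 to 4.68 and CSF1R at 3.81 to 4.73. TYROBP averaged 6.87 in treated L428 and 9.40 in treated L1236. CD8A averaged 5.33 in treated L1236 and NKG7 5.07 in treated L428. B-cell genes were mixed. MS4A1, which encodes CD20, was at 2.46 to 2.55 throughout, whereas the transcription factor gene PAX5 averaged 12.61 in treated and 11.78 in untreated L1236 and 6.54 in treated and 5.32 in untreated L428. The coactivator gene POU2AF1 averaged 12.23 in treated and 13.41 in untreated L1236 and 2.39 in both L428 groups.

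**Figure D2:**
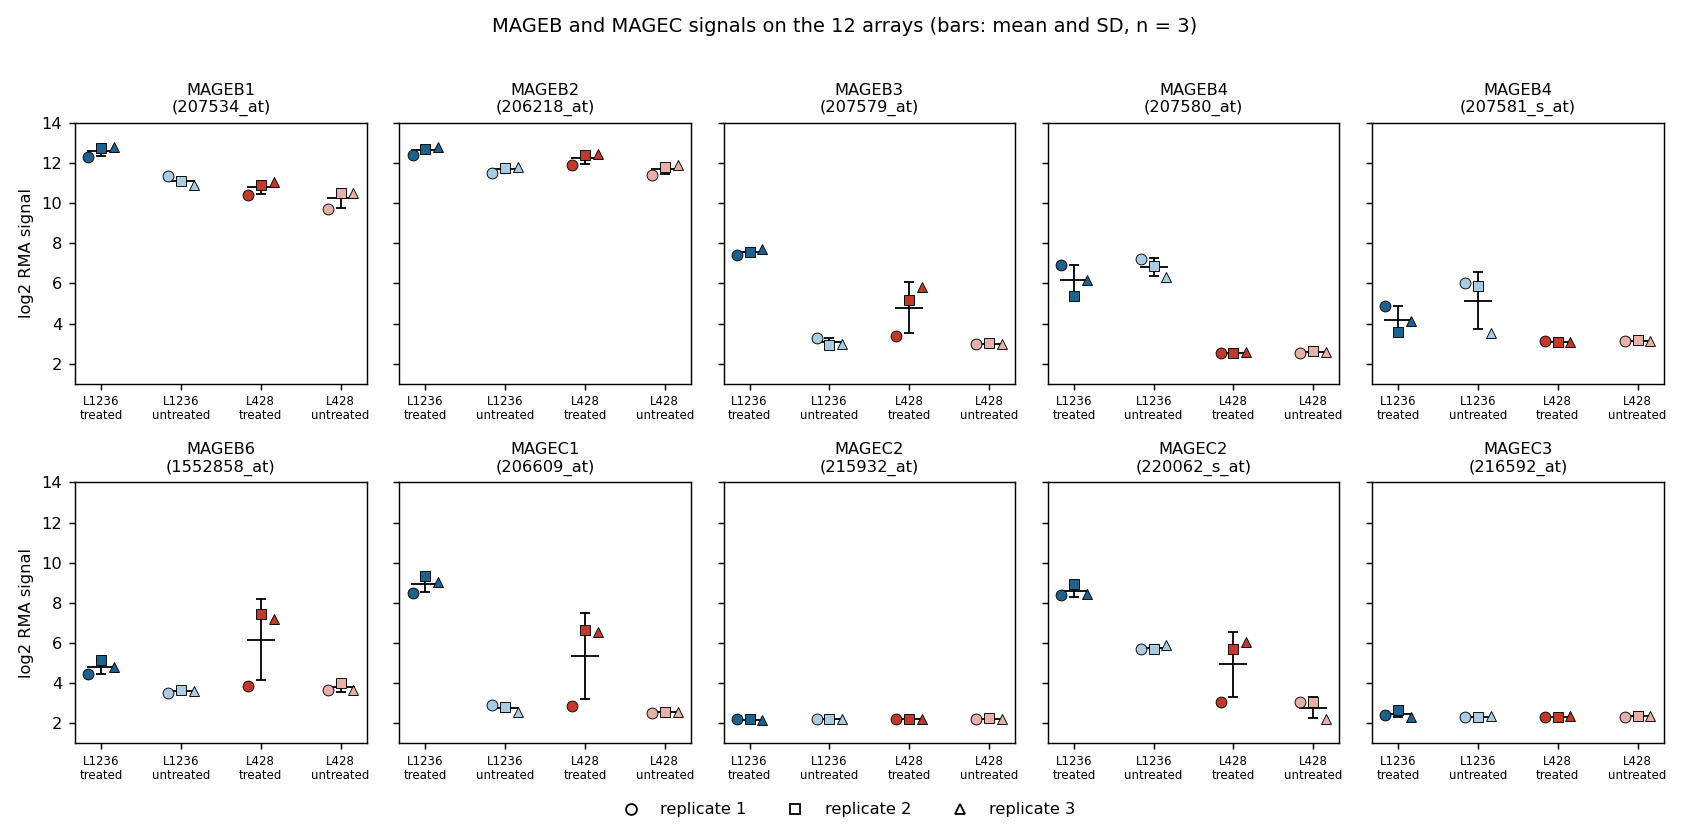
log2 RMA signal of each of the 10 probe sets on all 12 arrays, with groups on the horizontal axis, point shape for replicate number, and bars for the mean and SD of 3 arrays. MAGEB1 and MAGEB2 are high in every group, MAGEB4 is raised in L1236 alone, and MAGEB3, MAGEB6, MAGEC1 and MAGEC2 (220062_s_at) are low in treated L428 replicate 1 but not in the other treated L428 arrays.

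In L1236, 5 of the 8 genes rose after 5-Aza-dC and none was called lower. MAGEC1 rose most, followed by MAGEB3, MAGEC2, MAGEB1 and MAGEB2. By probe set, 5 of 10 were called higher, against 4.58% of all probe sets, and the median change of the 10 was 1.08, against -0.03 for all probe sets. MAGEB6, MAGEB4 and MAGEC3 were not called.

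MAGEC1, also known as CT7, encodes a MAGE protein with a long repetitive front part and is a well-known antigen of multiple myeloma. Its signals were 8.5, 9.35 and 9.02 in treated L1236, against 2.89, 2.82 and 2.54 in untreated L1236. The 2 groups were far apart and each was tight, with the untreated arrays at the low end of the scale. The change was 6.21 ± 0.86 (SE, n = 3 arrays each), with an adjusted p = 0.00294 from limma. With values below 4 raised to 4 the change was 4.95, and in every alternative setting the call was made.

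MAGEB3 stands between MAGEB2 and MAGEB4 on the short arm of the X chromosome. Its signals were 7.40, 7.56 and 7.72 in treated L1236, against 3.28, 2.94 and 3.0 in untreated L1236. No treated array came near an untreated one. The rise was 4.48 ± 0.50 (limma adjusted p = 9.93e-04), and it was 3.56 with values below 4 raised to 4. The promoter window shown above holds 3 CpGs.

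MAGEC2, also known as CT10, is the partner of TRIM28. Its probe set 220062_s_at gave 8.37, 8.92 and 8.44 in treated L1236, against 5.70, 5.70 and 5.92 in untreated L1236. Unlike MAGEC1, it was already above the low end without treatment. The rise was 2.81 ± 0.67 (limma adjusted p = 0.0349). The size of the change was 2.64 to 2.91 in every alternative setting, but the call was lost without 1 of 6 single arrays, with adjusted p-values of 0.0568 (untreated L428 replicate 2), 0.0874, 0.104 and 0.0971 (untreated L1236 replicates 1, 2 and 3) and 0.128 and 0.101 (treated L1236 replicates 2 and 3). The other MAGEC2 probe set, 215932_at, read 2.17 to 2.26 on all 12 arrays and so did not follow 220062_s_at. Which of the 2 reports the transcript was not tested.

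MAGEB1 and MAGEB2, among the first MAGEB genes described, were strongly expressed before treatment and rose by less. MAGEB1 read 12.32, 12.75 and 12.79 in treated L1236, against 11.33, 11.08 and 10.91 in untreated L1236. The groups did not overlap, and the rise was 1.51 ± 0.26, or 2.85-fold (limma adjusted p = 0.00881). MAGEB2, known to repress translation of the stress granule protein G3BP1, read 12.42, 12.72 and 12.80 in treated L1236, against 11.49, 11.76 and 11.81 in untreated L1236. Its rise was 0.96 ± 0.18, or 1.95-fold (limma adjusted p = 0.0125), and the call was lost without treated replicate 2 (0.0537) or treated replicate 3 (0.0547). The windows of the downstream MAGEB1 start and of MAGEB2, with 18 and 21 CpGs, are the richest in CpG of the members. The upstream MAGEB1 window holds 1 CpG, and which start these cells use was not tested.

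Of the genes not called in L1236, MAGEB6 lay above its untreated arrays on every treated array. It read 4.44, 5.15 and 4.81 in treated L1236, against 3.53, 3.65 and 3.61 in untreated L1236. Its difference was 1.20 ± 0.80 (limma adjusted p = 0.337, 95% interval -0.60 to 3.01), where the shared estimate of spread also takes in the wide scatter of the treated L428 arrays. With the L1236 arrays fitted alone the adjusted p was 0.0403, and without treated L428 replicate 1 it was 0.00534.

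Both MAGEB4 probe sets had lower means after treatment, with neither called. Its probe set 207580_at read 6.94, 5.38 and 6.16 in treated L1236, against 7.21, 6.88 and 6.34 in untreated L1236. The groups overlapped, and the difference was -0.65 ± 0.35 (limma adjusted p = 0.267). Without treated L1236 replicate 1 it was -1.04 (0.039). Its other probe set, 207581_s_at, read 4.88, 3.57 and 4.15 in treated L1236, against 6.02, 5.89 and 3.53 in untreated L1236, and the difference of -0.95 ± 0.60 (0.323) was -1.75 without untreated replicate 3 (0.0196). MAGEC3 stayed between 2.32 and 2.67 in both L1236 groups, at the low end.

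In L428, limma called none of the 8 genes. Of the 10 probe sets, 0 were called, against 3.02% of all probe sets called either way (1.82% higher). Against that share, 0 of 10 says little about the members. At an unadjusted p under 0.05 there were 5 of the 10, against 16.2% of all probe sets. Their median change was 0.54, against -0.02 for all probe sets. The treated arrays split, since replicates 2 and 3 were above the untreated arrays for 6 genes while replicate 1 was within 0.41 of the untreated mean for each of them. For MAGEB1 and MAGEB2, untreated replicate 1 was also the lowest of its group, at 9.70 and 11.41. The split of these 2 genes thus depends on the use of the untreated mean. Without treated replicate 1, limma called 5 of the 10 higher and none lower, against 5.69% of all probe sets called higher in the same fit.

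MAGEC1 read 2.87, 6.65 and 6.54 in treated L428, against 2.53, 2.58 and 2.56 in untreated L428. The difference was 2.79 ± 0.86 (limma adjusted p = 0.14, 95% interval 0.85 to 4.74), and it was 4.04 (1.97e-05) without treated replicate 1. MAGEB6 read 3.87, 7.44 and 7.21 in treated L428, against 3.67, 4.03 and 3.65 in untreated L428, so that treated replicate 1 lay inside the untreated range. Its difference was 2.39 ± 0.80 (0.173), or 3.55 (2.62e-05) without that array.

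MAGEC2 (220062_s_at) read 3.07, 5.69 and 6.05 in treated L428, against 3.07, 3.08 and 2.20 in untreated L428. The difference of 2.15 ± 0.67 (limma adjusted p = 0.15) was 3.08 (4.48e-04) without treated replicate 1. MAGEB3 read 3.39, 5.16 and 5.84 in treated L428, against 2.96, 3.03 and 2.97 in untreated L428. Here all treated arrays were above all untreated arrays, replicate 1 by the least, and the difference was 1.81 ± 0.50 (0.105), or 2.51 (1.56e-04) without it. With values below 4 raised to 4, the differences of MAGEC1, MAGEC2 and MAGEB3 were 1.73, 1.25 and 1.00, and without the dimmer probe sets MAGEB3 was called (0.0397).

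MAGEB2 and MAGEB1 were high in L428 as well. MAGEB2 read 11.92, 12.38 and 12.43 in treated L428, against 11.41, 11.79 and 11.90 in untreated L428. Its difference was 0.54 ± 0.18 (limma adjusted p = 0.172). Without treated replicate 1 it was 0.70 (0.0355). In both L428 groups replicate 1 was the lowest, and a fit that blocked on replicate number gave an adjusted p of 0.00244. MAGEB1 read 10.40, 10.91 and 11.04 in treated L428, against 9.70, 10.53 and 10.52 in untreated L428. Its difference of 0.54 ± 0.26 (0.371) was not called with the block either. It was 0.26 without untreated replicate 1 and 0.73 (0.159) without treated replicate 1. Without all arrays numbered 1, MAGEB1 (0.45, 0.0124) and MAGEB2 (0.56, 0.00256) were called, in a fit that called 18.2% of all probe sets. MAGEB4 (2.53 to 2.62 on 207580_at) and MAGEC3 (2.32 to 2.38) stayed at the low end on all 6 L428 arrays.

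**Figure D3:**
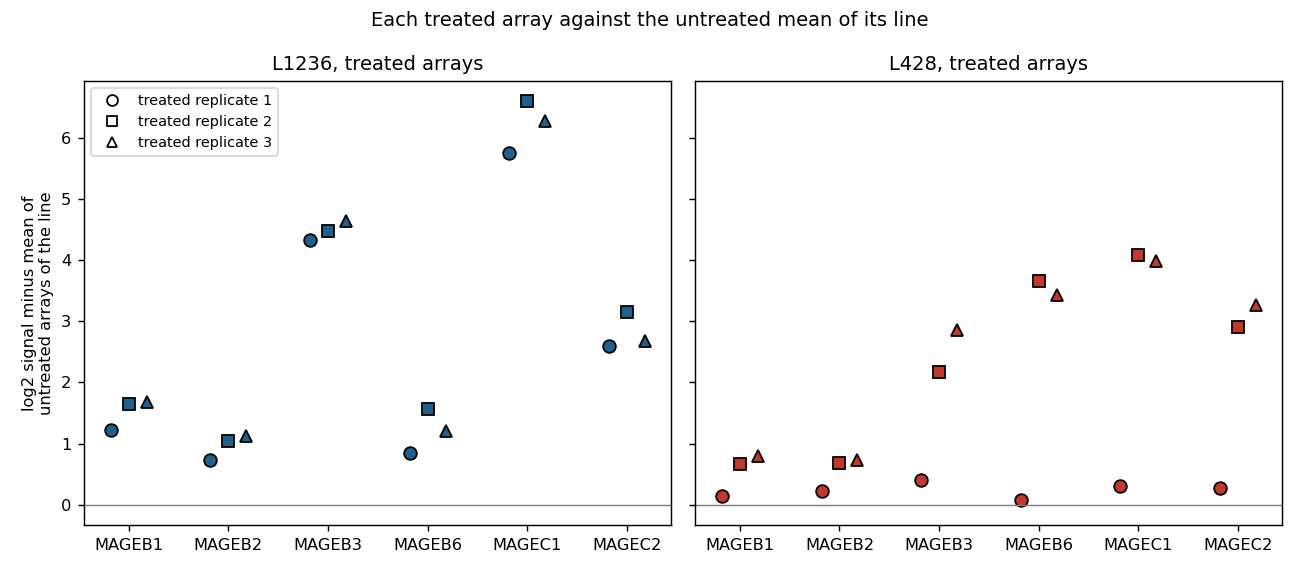
log2 signal of each treated array minus the mean of the 3 untreated arrays of its line, for 6 genes (MAGEC2 by 220062_s_at), with L1236 left and L428 right and point shape for treated replicate. In L428 replicate 1 lies at 0.08 to 0.41 for all 6 genes, while replicates 2 and 3 reach 3.98 to 4.09 for MAGEC1, and in L1236 all 3 arrays lie above 0. For MAGEB1 and MAGEB2, untreated L428 replicate 1 was also the lowest of its group.

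The treated arrays numbered 1 were also the lowest of their group in L1236 for these 6 genes, by a smaller margin. For MAGEC1 the treated L1236 arrays were 5.75, 6.60 and 6.27 above the untreated mean. Treated L428 replicate 1 was not without a response in other antigens. Its mean over 7 MAGEA genes was 6.32, against 9.24 and 9.18 in treated replicates 2 and 3 and 2.40 to 2.45 in untreated L428. In that array MAGEA6 and MAGEA12 were 7.81 and 7.10 above their untreated means, whereas MAGEA10 and MAGEA11 were 0.70 and -0.03 from theirs, against 0.08 to 0.41 for the 6 MAGEB and MAGEC genes. In the 2 other treated L428 arrays MAGEA10 was 4.98 and 5.39 above and MAGEA11 3.01 and 2.78. These genes were singled out after their values were seen, and the part of that array's handling in the pattern was not tested.

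**Figure D4:**
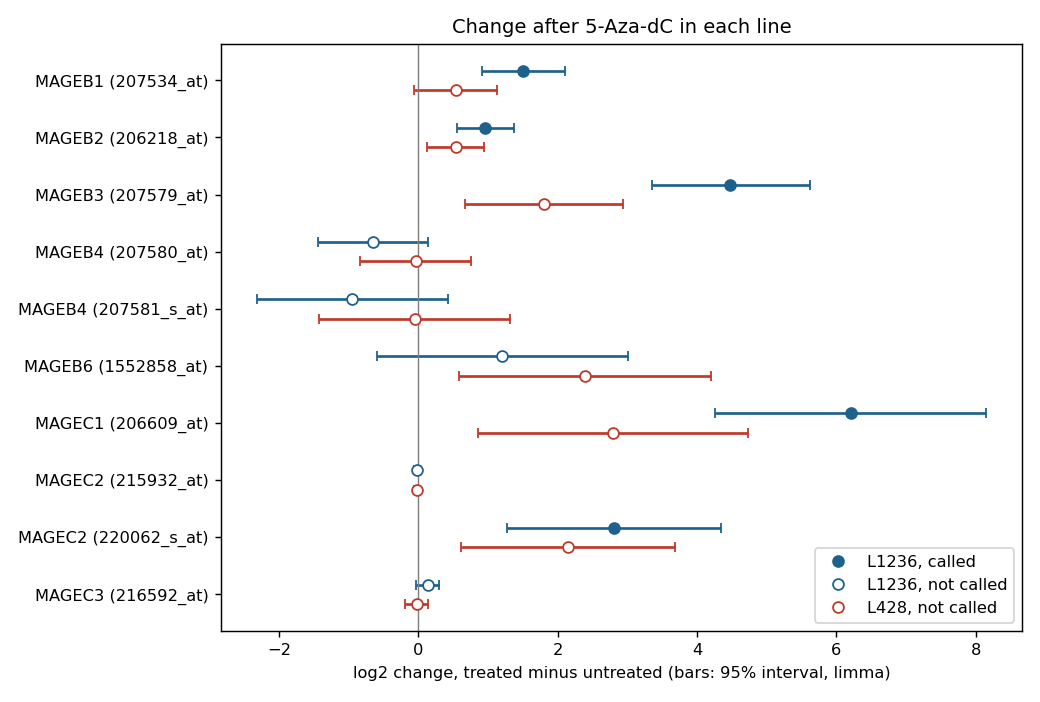
log2 change, treated minus untreated, for each probe set in L1236 (upper point of each pair) and L428 (lower point), with 95% intervals from limma and filled points for called changes. Filled points are found for MAGEB1, MAGEB2, MAGEB3, MAGEC1 and MAGEC2 in L1236 and for no probe set in L428.

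Whether the lines responded differently was tested as the L1236 change minus the L428 change. None of the 10 probe sets was called by limma, against 2.57% of all probe sets called either way. At an unadjusted p under 0.05 there were 3 of the 10, against 13.1% of all probe sets. The largest values were those of MAGEC1 at 3.41 ± 1.21 (adjusted p = 0.244, 95% interval 0.66 to 6.16) and MAGEB3 at 2.68 ± 0.71 (0.104, 1.07 to 4.28). MAGEB1 followed at 0.98 ± 0.37 (0.282, 0.13 to 1.82). MAGEB6 had the opposite sign, -1.19 ± 1.13 (0.83, -3.74 to 1.37). The value of MAGEB1 was 0.79 (0.36) without treated L428 replicate 1 and was not called then either. Those of MAGEB3, MAGEC1 and MAGEB6 turn on that array. Without it the differences of MAGEB3, MAGEC1 and MAGEB6 were 1.98 (0.00468), 2.17 (0.00505) and -2.34 (0.00249). In that fit MAGEB3 and MAGEC1 were called as changing by more in L1236 and MAGEB6 by more in L428. The same fit called 5.6% of all probe sets either way, against 2.57% with all arrays. MAGEB3 was also called without treated L428 replicate 3 (3.20, 0.0439) and without the dimmer probe sets (0.0407). Without all arrays numbered 1, MAGEB3 (2.17, 0.014), MAGEC1 (2.48, 0.00251) and MAGEB6 (-2.14, 0.00769) were called with the same signs. MAGEB1 (1.32, 0.00201) and MAGEB2 (0.42, 0.023) were called there as well. That fit called 14.3% of all probe sets either way.

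Untreated, the lines shared high MAGEB2 and differed in MAGEB4 and MAGEC2. Of the 10 probe sets, 4 were called, all higher in L1236, against 21.1% of all probe sets called either way. MAGEB4 (207580_at) read 7.21, 6.88 and 6.34 in untreated L1236, against 2.55, 2.62 and 2.58 in untreated L428. The difference of 4.23 ± 0.35 (limma adjusted p = 2.86e-05) was 2.81 with values below 4 raised to 4. Its probe set 207581_s_at differed by 2.0 ± 0.60 (0.0451), a call lost in 15 of 22 alternative settings. MAGEC2 differed by 2.98 ± 0.67 (0.0116) and was called in every alternative setting, with a value of 1.77 under the raised low end.

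MAGEB1 was higher in untreated L1236 than in untreated L428 by 0.86 ± 0.26 (limma adjusted p = 0.0469), with no overlap of the arrays. That call was lost in 13 of 23 alternative settings, and the difference was 0.58 without untreated L428 replicate 1. MAGEB2 averaged 11.69 ± 0.17 in untreated L1236 and 11.70 ± 0.26 in untreated L428 (SD, n = 3 each), a difference of -0.02 with a 95% interval of -0.43 to 0.39. MAGEB3, MAGEC1 and MAGEC3 were at or near the low end in both untreated lines, and MAGEB6 averaged 3.60 in untreated L1236 and 3.78 in untreated L428.

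After treatment, 5 probe sets of 5 genes were called between the lines, all higher in L1236, against 21% of all probe sets called either way. They were MAGEB1 at 1.84 ± 0.26 (limma adjusted p = 9.12e-04), MAGEB3 at 2.76 ± 0.50 (0.00355), MAGEB4 (207580_at) at 3.62 ± 0.35 (8.22e-05), MAGEC1 at 3.60 ± 0.86 (0.0151) and MAGEC2 (220062_s_at) at 3.64 ± 0.67 (0.00407). With only the treated arrays in the fit, MAGEB3 (0.0599), MAGEC1 (0.128) and MAGEC2 (0.0579) were not called, and MAGEC1 was not called without treated L1236 replicate 2 (0.056). Without treated L428 replicate 1 the difference of MAGEC1 was 2.36, and with values below 4 raised to 4 that of MAGEB4 was 2.16. MAGEB6 differed by -1.37 ± 0.80 (0.283), and by -2.53 (5.63e-05) without treated L428 replicate 1. MAGEB2 differed by 0.40 ± 0.18 (0.175), and with the block on replicate number its adjusted p was 6.34e-04.

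The order of the 4 groups thus differed between genes. For MAGEC2 it was treated L1236 (8.58 ± 0.30), untreated L1236 (5.77 ± 0.13), treated L428 (4.94 ± 1.63) and untreated L428 (2.79 ± 0.51), where the arrays of treated L428 overlapped those of both untreated groups. For MAGEC1 it was treated L1236 (8.95 ± 0.43), treated L428 (5.35 ± 2.15), untreated L1236 (2.75 ± 0.18) and untreated L428 (2.56 ± 0.02). Treated L428 overlapped untreated L1236, through replicate 1, and the untreated lines overlapped each other. For MAGEB6 the mean was highest in treated L428 (6.17 ± 2.0), followed by treated L1236 (4.80 ± 0.36), untreated L428 (3.78 ± 0.21) and untreated L1236 (3.60 ± 0.06), where the arrays of treated L428 overlapped those of treated L1236 and of untreated L428. All are mean ± SD with n = 3.

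On the X chromosome, MAGEB2, MAGEB3, MAGEB4 and MAGEB1 are neighbours in that order on the short arm, with MAGEB6 apart from them, and MAGEC3, MAGEC1 and MAGEC2 are neighbours on the long arm. In RefSeq the gene models of MAGEB4 and MAGEB1 overlap by 457 bases on the same strand, so their signals are uncertain as to the gene where a probe lies in the overlap. Within both runs, genes that rose in L1236 stood next to genes that did not: MAGEB4 between MAGEB3 and MAGEB1, and MAGEC3 beside MAGEC1. Of the 3 protein-coding genes on each side of each run, MAGEB18, PPP4R3C, DCAF8L2, IL1RAPL1, TASL and SLITRK4 had a probe set of their own. None of these 6 was called by limma in either line, with 1 in L428 and 0 in L1236 at an unadjusted p under 0.05. Of all probe sets, 16.2% in L428 and 24.4% in L1236 had such a p, and this share was not computed per gene. With 1 probe set per gene in the fit, 4.65% of all genes were called in L428 and 14.9% in L1236. Against these shares, 0 of 6 says little about the neighbours. TASL, an adaptor of Toll-like receptor signalling, was the one with clear signal, at 5.79 in treated and 6.02 in untreated L1236 and at 8.90 in treated and 8.37 in untreated L428, and the others were between 1.81 and 3.16.

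The patterns most like those of the called members were found by centring each gene on its own mean and taking the root mean square difference over the 12 arrays. For MAGEC1 they were those of TSPYL6 (0.45 log2 units), PAGE1 (0.48) and AURKC (0.51). For MAGEB3 they were PTGR1 (0.32), TUSC1 (0.36) and C5orf58 (0.40), and for MAGEC2 CEP192P1 (0.60), CD274 (0.61) and KDM5B (0.62). For MAGEB1 they were MTARC2 (0.20), INAFM2 (0.22) and ATP6V1D (0.26), and for MAGEB2 TOMM34 (0.13), MED19 (0.17) and KPTN (0.18).

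Other MAGE genes moved to different degrees. The counts of these and the lists below stand against the fit with 1 probe set per gene. It called 14.9% of all genes in L1236 (8.59% higher) and 4.65% in L428 (3.32% higher). Of 7 MAGEA genes with a probe set of their own, 5 rose in L1236 and 5 in L428, with median changes of 6.22 and 6.10. MAGEA6, MAGEA8 and MAGEA12 had the smallest adjusted p-values in both lines, and MAGEA6 rose by 10.11 ± 0.47 in L1236 (5.04e-06) and 9.17 ± 0.47 in L428 (4.00e-05). Some MAGEA genes are near-identical, so the probe sets of those are uncertain as to the member. Of 9 MAGE genes of type II, which are widely expressed outside the germ line, MAGEH1 rose in L1236 by 1.58 ± 0.20 (0.00183). In L428 NDN, an imprinted gene, rose by 2.66 ± 0.57 (0.0451) and NSMCE3, a subunit of the SMC5/6 complex, fell by 0.71 ± 0.08 (0.00189). The median changes of the 9 were 0.20 in L1236 and -0.02 in L428. The 1 other MAGEB gene measured, MAGEB18, had changes of -0.05 in L1236 and -0.02 in L428 with group means of 3.10 to 3.16.

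Of 8 genes for partners of MAGE proteins, 2 rose in L1236, against 8.59% of all genes, and none was called in L428 by limma. At an unadjusted p under 0.05 there were 3 in L428, against 16.2% of all probe sets. That share was not computed with 1 probe set per gene. TRIM31 rose by 3.70 ± 0.11 (2.44e-07) and the ubiquitin ligase gene PJA1 by 0.71 ± 0.09 (0.00253) in L1236. TRIM28, the partner of MAGEC2, was high throughout and was not called, at 11.15 in treated and 11.53 in untreated L1236 and at 11.37 in treated and 11.77 in untreated L428. The median change was -0.02 in L1236 and -0.05 in L428. Of 18 other X-linked cancer-testis genes, 10 rose and 1 fell in L1236 and 7 rose in L428, with medians of 1.08 and 1.61. The smallest adjusted p-values were those of CTAG2 (8.89 ± 0.51), TKTL1 (10.04 ± 0.60) and GAGE1 (4.26 ± 0.34) in L1236 and of SSX1 (9.34 ± 0.60), SSX3 (8.32 ± 0.55) and TKTL1 (8.76 ± 0.60) in L428. The gene that fell in L1236 was SPANXB1, at -3.22 ± 0.54 (limma adjusted p = 0.00762), named after its value was seen.

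Of 9 genes of the DNA methylation machinery, CTCFL, a germ-line paralogue of CTCF, rose in both lines, by 4.38 ± 0.20 in L1236 (limma adjusted p = 4.73e-06) and 4.22 ± 0.20 in L428 (2.94e-05). DNMT1, the maintenance methyltransferase and target of the drug, fell by 0.57 ± 0.14 in L1236 (0.034), and TET3 fell by 0.67 ± 0.14 in L428 (0.0355). The medians were -0.07 and -0.03. Of 7 germ-cell markers, DAZL (9.51 ± 0.68) and DDX4 (1.79 ± 0.18) rose in L1236 and DAZL (7.76 ± 0.68) in L428, while the sperm protein genes TNP1, PRM1 and PRM2 were at 2.26 to 3.09 in every group. The mean of the list was 4.42 to 4.51 on treated and 2.87 to 2.90 on untreated L1236 arrays, and 3.56 to 4.12 on treated and 2.71 to 2.93 on untreated L428 arrays.

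Markers of other blood cells also moved with treatment in a few members. Of 8 T-cell and NK-cell markers, CD8A (3.36 ± 0.17) and CD3D (2.43 ± 0.43) rose in L1236 and CD2 (1.71 ± 0.26) in L428. The mean of that list was 3.66 to 3.79 on treated and 2.67 to 2.80 on untreated L1236 arrays, and 3.14 to 3.40 on treated and 2.81 to 3.08 on untreated L428 arrays. Of 6 myeloid markers, TYROBP (6.04 ± 0.22) and ITGAM (1.63 ± 0.16) rose in L1236 and TYROBP (4.08 ± 0.22) in L428, with list means of 4.27 to 4.74 on treated and 3.11 to 3.14 on untreated L1236 arrays and of 3.62 to 3.94 on treated and 2.90 to 3.04 on untreated L428 arrays. The markers CD3E and CD14 were at the low end in every group and others were not, as given above. Of 6 B-cell markers none was called in either line by limma. At an unadjusted p under 0.05 there were 4 in L1236 and 1 in L428, against 24.4% and 16.2% of all probe sets. Those 2 shares were not computed with 1 probe set per gene. The mean of the 6 markers was 6.85 to 7.07 on treated and 6.69 to 6.93 on untreated L1236 arrays, and 3.77 to 3.98 on treated and 3.72 to 3.76 on untreated L428 arrays. Their part in the changes of the MAGEB and MAGEC genes, like that of the other marker lists, was not tested. Of 8 markers of Hodgkin tumour cells, CCL17 (3.01 ± 0.20) and JUNB (2.16 ± 0.38) rose in L1236 and CD274 (2.64 ± 0.58, adjusted p = 0.0498) in L428.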

How the data were processed

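RNA of 12 samples was hybridised to Affymetrix arrays. The deposited values are on the log2 scale, 1 for each probe set on each array, and the authors made them with RMA, per the design text and the submitters' processing notes. Its version, and whether all arrays were normalised together, are not given in the sources used here. The array model in the design text is a whole-transcript one, but the probe set names belong to a 3' expression array, and its annotation was used. Array number, and not read depth, limits the precision.

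Groups came from the sample descriptions. After leaving out 62 control probe sets, a model with 4 group means was fitted to 54613 probe sets with limma 3.58.1 in R 4.3.3, with empirical Bayes moderation and Benjamini-Hochberg adjustment, two-sided, called under 0.05. The fit was tested on simulated data. Of the probe sets, 41091 had 1 gene symbol, 1801 several and 11721 none, and 41037 were matched to RefSeq of GRCh38.p14. A gene with several was represented by the one with the highest mean.

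All probe sets of the members are described. Of the other lists, up to 3 called genes of smallest adjusted p per line are named, with 3 similar patterns per called member and 3 neighbours on each side. Members and lists were chosen with earlier results of these data known.

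Titles number the arrays 1 to 3 in each group. Deviations from group means of same-numbered arrays correlated at 0.15 to 0.26 between the L428 groups and 0.22 to 0.40 between the treated groups, all above 0.1, so blocked values are given there. Between the L1236 groups they were 0.01 to 0.10, and 0.08 to 0.29 between the untreated groups.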

Additional observations from a re-analysis of the deposited data

How the results depend on the processing

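The number of MAGEB and MAGEC probe sets called in L428 was 0, and it was 1 without the dimmer probe sets, 1 with the replicate number as a block and 6 without all arrays numbered 1. With single arrays left out it was 0 to 5, the 5 coming without treated L428 replicate 1. In L1236 it was 5, all higher, with 8 under array weights (6 higher and 2 lower) and 3 to 6 with single arrays left out. The 3 came without treated L1236 replicate 2 or 3. The 6 came without treated L428 replicate 1 (all higher) or treated L1236 replicate 1 (5 higher and 1 lower). Without untreated L1236 replicate 3 it was 5, with 4 higher and 1 lower. For the difference in response it was 0, with 1 without the dimmer probe sets, 1 with the block (MAGEB2, 0.42, adjusted p = 0.025), 5 without all arrays numbered 1 and 0 to 3 with single arrays left out, the 3 coming without treated L428 replicate 1. A fit to the arrays of the contrast alone was not run for it, since it uses all 12. Between untreated lines it was 4, with 2 when values below 4 were raised to 4, 2 with only the untreated arrays, and 2 to 4 with single arrays left out, where the count was 2 for each array but treated L1236 replicate 1, untreated L1236 replicate 3 and treated L428 replicate 1. Between treated lines it was 5, with 2 with only the treated arrays and 8 under array weights. Leaving out arrays changes the number of samples in the fit, and the cause was not tested further. Estimation of the array weights stopped short of convergence, with weights of 0.05 to 4.64, and that fit called 54.1% of all probe sets in L1236 and 51.1% between treated lines, so its counts of 8 carry little. Without all arrays numbered 1, 18.2% of all probe sets were called in L428 and 14.3% for the difference in response.

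Over the changes called in at least 1 setting, 769 alternative values were computed. Of these, 688 kept their side of the threshold, 40 lost the call and 41 gained it. None turned direction, but 6 of the 688, all of MAGEC2 215932_at or MAGEC3, were 0 at 2 decimals and so had none. The block changed no other call in L428, and between the untreated lines it ended that of MAGEB4 207581_s_at (0.0502). Over all probe sets, 4927 were called in L1236 (2504 higher and 2423 lower), against 13111 with arrays centred on their medians (3223 higher and 9888 lower). In L428, 1647 were called, against 6091 without treated replicate 1, 9956 without all arrays numbered 1 and 244 with the L428 arrays alone.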
